A study of Mus musculus with 6 samples.

Results

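The comparison set the aortas of mice with chronic kidney disease and medial calcification (CKD) against aortas of young wild type mice (Ctrl), all C57BL/6. It used the 4 libraries titled CKD1, CKD2, Ctrl1 and Ctrl2 out of 6 in the series, and every gene with at least 1 FPKM in at least 2 of those 4 libraries, which left 13200 of 27815 genes. FPKM counts reads scaled to a gene's exon length and to the library's depth, so levels can be compared between genes. The Ctrl mice were wild type, 8-week by the protocol and 2-month by the age label, and the labels name no sham operation or control diet for them. In the CKD mice both poles of the left kidney were cut away at 8 weeks of age, and the right kidney was taken out 1 week later. They then received feed with 2% phosphate and drinking water with 0.45% NaCl for 4 weeks. Their age label, 16-month, conflicts with that schedule, so the age is uncertain. Surgery, diet, salt and any difference in age came together and cannot be told apart. The remaining 2 libraries, from 16-month ApoE-/- mice on chow, served only to share the estimate of spread. Whether a group's libraries came from separate animals is not stated, so p-values measure the spread among these libraries alone, which may be technical. An exact two-sided permutation test of 2 against 2 libraries cannot go below p = 0.33, so the tests rest on a model of the spread across genes.

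In medial calcification, hydroxyapatite is deposited between the elastic sheets of the arterial media, the layer of smooth muscle cells. Loss of kidney function raises blood phosphate, and smooth muscle cells exposed to high phosphate are known to lose contractile proteins, to take up phosphate through sodium-dependent transporters, and to switch on genes otherwise found in bone. Circulating and local proteins such as fetuins, matrix Gla protein, osteopontin and pyrophosphate-generating enzymes normally hold mineral back.

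The libraries held 14.44 to 16.64 M reads. Smooth muscle markers were present in all of them, with Acta2, the actin of smooth muscle, at 6034 and 5402 FPKM in Ctrl1 and Ctrl2 and 2393 and 4526 FPKM in CKD1 and CKD2. The libraries of a group differed by more than counting noise (chi-square per degree of freedom 19.5 for Ctrl and 75.8 for CKD), and 228 genes in Ctrl and 504 in CKD lay at least 1 apart on the log2 scale. In the ApoE-/- libraries Apoe itself stood at 13.2 and 11.4 FPKM, against 756 and 627 FPKM in Ctrl1 and Ctrl2 and 1410.4 and 1447 FPKM in CKD1 and CKD2 (1.05 ± 0.18, adjusted p = 0.0347 for CKD minus Ctrl). Fat cell genes differed between the libraries too. A mean centred log2 level over 20 white adipocyte markers was -1.87 in Ctrl1, -0.90 in Ctrl2, -0.14 in CKD2 and 1.35 in CKD1, and mitochondrial transcripts made up 3.13% and 4.19% of reads in Ctrl1 and Ctrl2 and 9.99% and 5.70% in CKD1 and CKD2. Lymphocyte and red cell genes followed another order, highest in Ctrl2. The T cell receptor gene Trbc2 stood at 1.39 and 32.9 FPKM in Ctrl1 and Ctrl2 and 0.782 and 0.5003 FPKM in CKD1 and CKD2, and the globin gene Hbb-bs at 163 and 641 FPKM in Ctrl1 and Ctrl2 and 74.1 and 104 FPKM in CKD1 and CKD2. Fewer cells of a type and less RNA per cell cannot be told apart in such bulk samples.

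Of the 13200 genes, 983 were called (7.45%), 409 higher in CKD (3.10%) and 574 lower (4.35%), at a limma adjusted p below 0.05, on log2(FPKM + 1). All 983 called genes had both CKD libraries on one side of both Ctrl libraries. That separation was common, however: it held for 3834 genes in the higher direction (29.0%) and 4774 in the lower direction (36.2%), and a share of list members near those percentages is no result about the list. Differences below are on the log2(FPKM + 1) scale with limma's SE, which understates the change of low genes. Where values are given as a pair against a pair, the order is Ctrl1 and Ctrl2 against CKD1 and CKD2. The median difference over all genes was -0.04. Genes that did not overlap and differed by at least 1 numbered 605 higher (4.58%) and 366 lower (2.77%), and among them CKD1 lay farther from Ctrl than CKD2 in 72.2% of the higher genes and 74.3% of the lower ones. Of the genes tested, 329 passed the filter only through both CKD libraries and 334 only through both Ctrl libraries. A gene of this kind had to lie on one side, so its call adds little to the count of a list.

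The count of called genes depended on which libraries entered the fit. Without Ctrl1 or without Ctrl2 no gene was called by limma, with 2094 and 2577 genes at an unadjusted p below 0.05, against 4168 with all libraries. Without CKD1 the count was 60 higher and 30 lower, and without CKD2 it was 1298 and 1414. With the spread taken from the 4 libraries alone, 3 genes were called, and without ApoE1 or ApoE2 the counts were 3 and 57. With the adipocyte level as a covariate, 6 genes were called, all higher, and without the filter on low values 15 genes passed among all genes above 0 in any of the 4 libraries. Every one of the 983 genes kept its direction in each alternative in which it was tested, and values in each library are given beside the model. Genes whose exons overlap another annotated gene by at least 5% carry that share as exon overlap and are uncertain, since the kit does not mark strand. Trbc2, Hbb-bs, C4b, Tpsb2 and Acot2 have near-identical relatives with which reads could be shared.

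**Figure D1:**
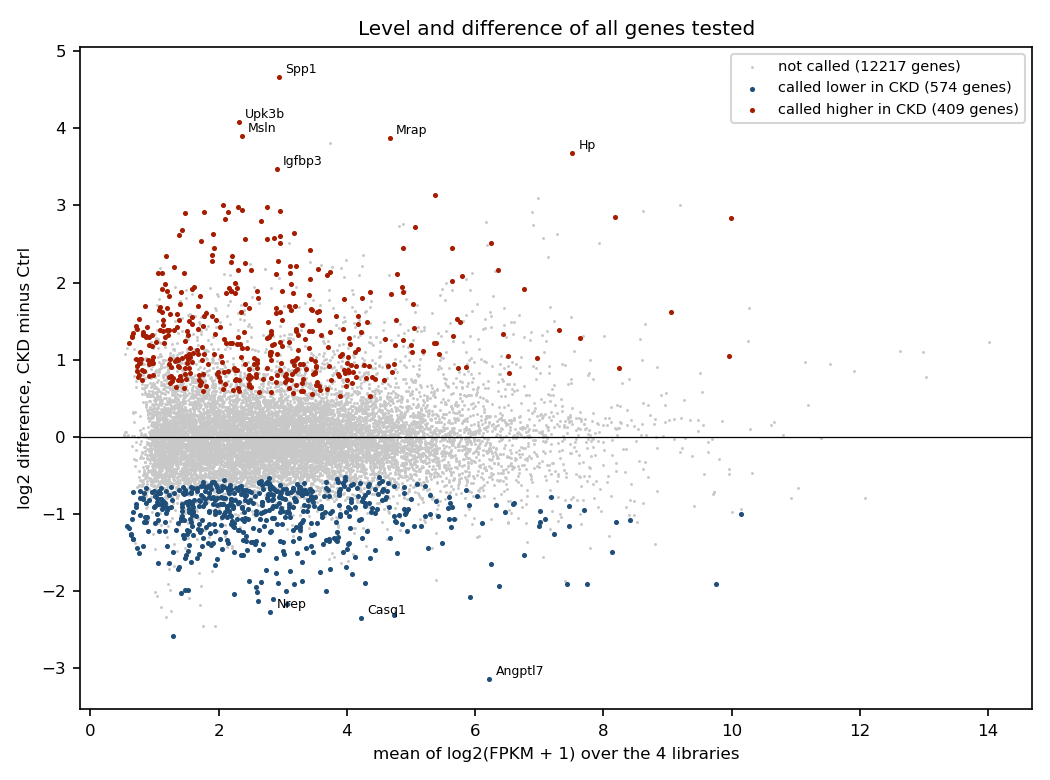
Each point is a gene: the x axis is its mean log2(FPKM + 1) over the 4 libraries and the y axis its log2 difference, CKD minus Ctrl, with called genes in red (409 higher) and blue (574 lower). The largest rise was that of Spp1 at 4.67 and the largest fall, among genes of at least 5 FPKM on average, that of Angptl7 at -3.15.

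The largest rise was that of Spp1 (chr5:104435118-104441050, GRCm38), which encodes osteopontin, a secreted phosphoprotein of bone, macrophages and calcifying arteries. It stood at 0.474 and 0.561 FPKM in Ctrl1 and Ctrl2 and 23.4 and 60.0 FPKM in CKD1 and CKD2, a difference of 4.67 ± 0.41, adjusted p = 0.0122, 18.8% exon overlap. Both Ctrl libraries were under 1 FPKM, and CKD2 held more than CKD1. The surface proteins Upk3b and Msln followed, both known from mesothelium, the cell sheet that lines body cavities. Upk3b (chr5:136038496-136046487) was at 0.119 and 0.318 FPKM in Ctrl1 and Ctrl2 and 22.7 and 16.8 FPKM in CKD1 and CKD2, a difference of 4.08 ± 0.29, adjusted p = 0.0102. Msln (chr17:25748613-25754378) was at 0.256 and 0.406 FPKM in Ctrl1 and Ctrl2 and 18.4 and 19.2 FPKM in CKD1 and CKD2, a difference of 3.90 ± 0.16, adjusted p = 0.00363. Msln had nearly equal levels in both CKD libraries. Igfbp3, a carrier of insulin-like growth factors, was at 1.54 and 0.992 FPKM in Ctrl1 and Ctrl2 and 29.3 and 19.7 FPKM in CKD1 and CKD2 (3.48 ± 0.25, adjusted p = 0.0102). Myl7, the atrial myosin light chain, was at 1.12 and 0.448 FPKM against 11.5 and 14.4 FPKM (2.98 ± 0.22, adjusted p = 0.0102).

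Several other large rises were steeper in CKD1, the library with the highest adipocyte level. The haptoglobin gene Hp, whose product binds free haemoglobin, was at 32.0 and 78.2 FPKM in Ctrl1 and Ctrl2 and 1066 and 401 FPKM in CKD1 and CKD2 (3.68 ± 0.64, adjusted p = 0.0351). Dgat1, which completes triglyceride synthesis, was at 11.0 and 15.3 FPKM against 204 and 73.3 FPKM (3.14 ± 0.49, adjusted p = 0.0301). Mrap, a partner of the melanocortin receptor found in fat and adrenal, was at 3.04 and 9.93 FPKM against 213 and 43.7 FPKM (3.88 ± 0.81, adjusted p = 0.0471). Rbp7, a retinoid-binding protein, was at 1.26 and 2.48 FPKM against 37.9 and 10.8 FPKM (2.93 ± 0.55, adjusted p = 0.0396), and Pabpc1l, a poly(A)-binding protein, at 0.419 and 0.558 FPKM against 16.7 and 6.99 FPKM (3.001 ± 0.36, adjusted p = 0.021). In all of these CKD1 was the highest library and CKD2 the second. Pabpc1l passed the filter only through CKD. Cxcl13, a B cell chemoattractant, was at 0.993 and 1.90 FPKM against 19.3 and 16.7 FPKM (2.98 ± 0.44, adjusted p = 0.0272), with near-equal CKD libraries. Vsig4, a complement receptor of tissue macrophages, was at 1.01 and 0.712 FPKM against 9.39 and 18.6 FPKM (2.94 ± 0.42, adjusted p = 0.0255), and was higher in CKD2.

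The largest fall was that of Angptl7 (chr4:148495183-148500460), a secreted angiopoietin-like protein, at 196 and 249.6 FPKM in Ctrl1 and Ctrl2 and 16.7 and 34.6 FPKM in CKD1 and CKD2, a difference of -3.15 ± 0.34, adjusted p = 0.0195. Both CKD libraries lay far under both Ctrl libraries. Casq1, the calcium-binding protein of the sarcoplasmic reticulum, was at 39.0 and 43.2 FPKM against 5.79 and 8.91 FPKM (-2.36 ± 0.20, adjusted p = 0.0122, 8.0% exon overlap). Haus8, a subunit of the augmin complex that seeds spindle microtubules, was at 15.5 and 18.02 FPKM against 2.93 and 2.94 FPKM (-2.17 ± 0.13, adjusted p = 0.0102). C1qtnf3, a secreted C1q/TNF-related protein, was at 12.7 and 15.4 FPKM against 2.09 and 2.92 FPKM (-2.11 ± 0.17, adjusted p = 0.0111). Both CKD libraries were alike for Haus8. Map3k7cl was at 135 and 112 FPKM against 25.2 and 32.0 FPKM (-2.08 ± 0.20, adjusted p = 0.0158). Sh3bgr was at 160.2 and 162 FPKM against 32.9 and 52.0 FPKM (-1.93 ± 0.32, adjusted p = 0.0323). Gja5, which encodes the endothelial gap junction protein connexin 40, was at 19.2 and 12.7 FPKM against 1.64 and 5.48 FPKM (-2.01 ± 0.42, adjusted p = 0.0485). The guanylate-binding protein gene Gbp4 was at 10.6 and 6.97 FPKM against 1.21 and 1.46 FPKM (-2.05 ± 0.27, adjusted p = 0.0235). The secreted kallikrein Klk10 was at 27.6 and 21.8 FPKM against 4.24 and 6.81 FPKM (-1.997 ± 0.24, adjusted p = 0.0215), and for it and for Gja5 the lowest library was CKD1. The remaining falls were steepest in CKD1 as well. Nrep was at 12.9 and 16.0 FPKM against 1.72 and 2.73 FPKM (-2.27 ± 0.19, adjusted p = 0.0122). Pcyox1l was at 11.9 and 9.89 FPKM against 1.43 and 2.85 FPKM (-1.95 ± 0.25, adjusted p = 0.0233).

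**Figure D2:**
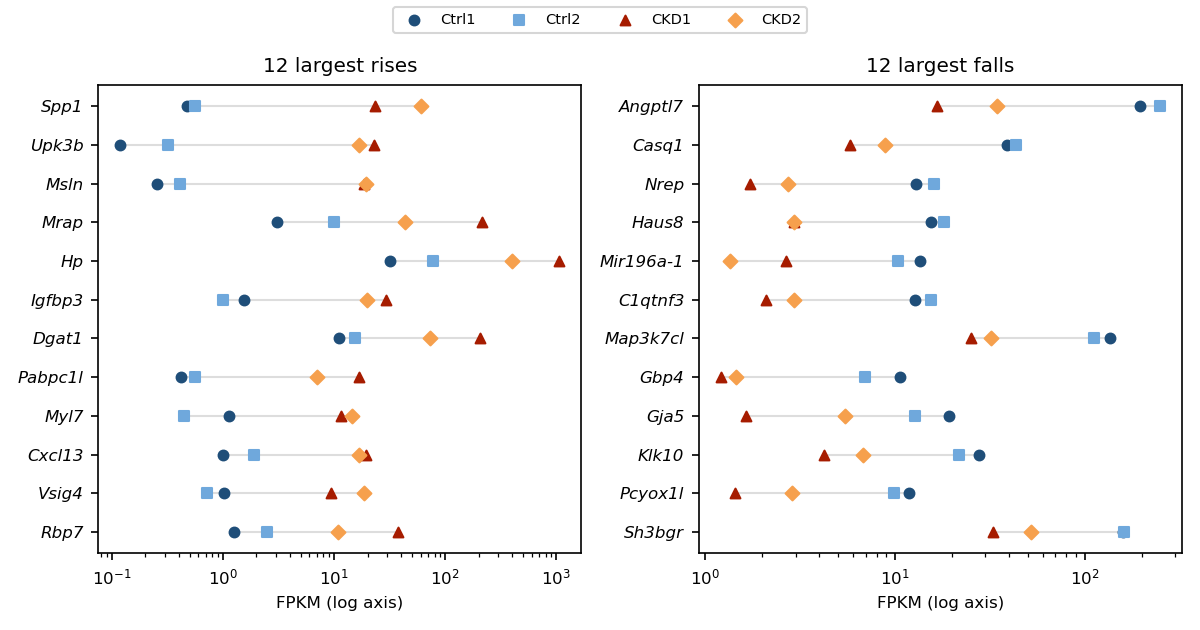
Values in FPKM (log axis) in each of the 4 libraries for called genes of mean level 5 FPKM or more: the 12 that rose most and the 12 that fell most. In every gene the 2 Ctrl points lie on one side of the 2 CKD points, while the distance between CKD1 and CKD2 is wide for Mrap and Rbp7 and narrow for Msln and Haus8.

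The genes with the widest gap relative to the spread within groups named another set. Fcna, a ficolin of macrophages that activates complement, was at 2.71 and 2.50 FPKM in Ctrl1 and Ctrl2 and 21.7 and 21.4 FPKM in CKD1 and CKD2 (2.64 ± 0.42, adjusted p = 0.0307, 6.6% exon overlap). The amino acid transporter chain Slc3a2 was at 24.5 and 23.3 FPKM against 52.5 and 53.1 FPKM (1.11 ± 0.13, adjusted p = 0.0208). The actin-binding protein Enc1 was at 5.49 and 5.03 FPKM against 18.5 and 18.5 FPKM (1.64 ± 0.12, adjusted p = 0.0102). The stress-activated kinase Plk3 was at 3.13 and 3.16 FPKM against 12.9 and 11.6 FPKM (1.67 ± 0.12, adjusted p = 0.0102). In these 4 genes each group's libraries differed little. Slc10a6, a carrier of sulphated steroids, was at 4.81 and 5.51 FPKM against 18.1 and 18.6 FPKM (1.66 ± 0.30, adjusted p = 0.0374). The annexin Anxa8 was at 1.47 and 1.90 FPKM against 11.8 and 10.3 FPKM (2.17 ± 0.17, adjusted p = 0.0111). The death-associated kinase Dapk1 was at 8.12 and 7.33 FPKM against 18.7 and 18.4 FPKM (1.16 ± 0.12, adjusted p = 0.017).

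Among the falls of this kind, Optc, opticin, a small leucine-rich proteoglycan, was at 30.6 and 30.1 FPKM in Ctrl1 and Ctrl2 and 7.77 and 8.39 FPKM in CKD1 and CKD2 (-1.79 ± 0.13, adjusted p = 0.0102). Car11, a member of the carbonic anhydrase family without the catalytic site, was at 22.9 and 23.2 FPKM against 5.93 and 6.79 FPKM (-1.71 ± 0.12, adjusted p = 0.0102). Speg, a kinase of striated and smooth muscle, was at 40.3 and 37.6 FPKM against 18.9 and 18.5 FPKM (-1.02 ± 0.12, adjusted p = 0.0205). The levels were tight in both groups. St5 was at 48.1 and 49.2 FPKM against 21.8 and 20.4 FPKM (-1.17 ± 0.17, adjusted p = 0.0257). Ints3, a subunit of the Integrator complex, was at 14.5 and 15.5 FPKM against 6.29 and 6.48 FPKM (-1.11 ± 0.12, adjusted p = 0.0195). The zinc finger gene Zkscan3 was at 16.8 and 15.9 FPKM against 7.41 and 7.91 FPKM (-1.01 ± 0.12, adjusted p = 0.0205). Bex4 was at 10.8 and 10.7 FPKM against 4.52 and 4.22 FPKM (-1.13 ± 0.12, adjusted p = 0.0173). Smim5 was at 24.3 and 26.8 FPKM against 9.31 and 9.07 FPKM (-1.38 ± 0.13, adjusted p = 0.0143).

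Some genes of mineral handling were called, while the list's shares without overlap lay near those of all genes. The list held inhibitors of mineralisation, phosphate transporters and other genes such as Bmp2, Fgfr1 and Car2. Of its 19 tested genes, 4 were called higher and none lower, beside 3.10% and 4.35% of all genes. Without overlap 7 lay higher (36.8%) and 5 lower (26.3%), against 29.0% and 36.2% of all genes, and the median was 0.13. Fetub and Car2 passed the filter only through CKD. Without them 2 of 17 were called higher and the median was -0.02. Slc20a1, the sodium-phosphate cotransporter PiT-1 through which smooth muscle takes up phosphate, was at 5.86 and 5.73 FPKM in Ctrl1 and Ctrl2 and 11.4 and 9.32 FPKM in CKD1 and CKD2 (0.74 ± 0.13, adjusted p = 0.0372, 8.1% exon overlap). Its relative Slc20a2 (PiT-2) was at 13.9 and 12.7 FPKM against 11.8 and 11.3 FPKM (-0.19 ± 0.11, adjusted p = 0.291), so its difference did not pass the test. Ahsg, fetuin-A, a serum protein that keeps calcium phosphate in solution, was at 17.3 and 11.1 FPKM in Ctrl1 and Ctrl2 and 49.4 and 63.8 FPKM in CKD1 and CKD2 (1.94 ± 0.39, adjusted p = 0.0442). Its relative Fetub was at 0.346 and 0.242 FPKM against 2.69 and 2.68 FPKM (1.51 ± 0.31, adjusted p = 0.0458). The liver is known as their main source, and both rose in both CKD libraries. Car2, the carbonic anhydrase that osteoclasts use to acidify bone, was at 0.174 and 0.791 FPKM against 5.53 and 2.49 FPKM (1.72 ± 0.34, adjusted p = 0.043), with CKD1 the higher.

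Further genes of mineral handling did not pass. Mgp, matrix Gla protein, was among the most abundant transcripts at 2489.7 and 2964 FPKM against 1999 and 3588 FPKM (-0.02 ± 0.34, adjusted p = 0.974), with overlapping groups. Enpp1, which makes pyrophosphate, was at 4.30 and 5.11 FPKM against 1.93 and 3.89 FPKM (-0.59 ± 0.26, adjusted p = 0.177). Alpl, the phosphatase that removes it, was at 3.11 and 2.93 FPKM against 6.20 and 4.53 FPKM (0.65 ± 0.48, adjusted p = 0.386). Tnfrsf11b, osteoprotegerin, was at 2.90 and 2.39 FPKM against 4.68 and 8.21 FPKM (0.99 ± 0.24, adjusted p = 0.0602). Gas6, a vitamin K-dependent ligand of the Axl kinase, was at 275 and 216 FPKM against 493 and 697 FPKM (1.26 ± 0.32, adjusted p = 0.0657). Both lay above Ctrl in both CKD libraries. Ggcx, the carboxylase that activates Gla proteins, was at 10.6 and 10.8 FPKM against 6.59 and 6.60 FPKM (-0.62 ± 0.28, adjusted p = 0.191), under Ctrl in both.

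Transcription factors of bone and cartilage showed no call. Runx2, the master regulator of osteoblasts, was under the filter at 0.360 and 0.284 FPKM against 0.482 and 0.721 FPKM, as were Sp7, Msx2 and 7 others of the 20 matched, and none of the 10 tested passed. Sox9, the cartilage regulator, was at 1.34 and 0.751 FPKM against 0.736 and 1.29 FPKM (-0.02 ± 0.22, adjusted p = 0.957), with overlapping libraries, and Runx3 was at 0.408 and 0.607 FPKM against 1.07 and 2.50 FPKM (0.84 ± 0.26, adjusted p = 0.0955). Of 10 tested bone matrix and osteocyte genes only Spp1 was called higher, and Sparc lower, while 7 of the 17 matched, among them Ibsp, Bglap and Dmp1, were under the filter. Sost, the Wnt inhibitor sclerostin known from osteocytes, was at 577 and 443 FPKM against 149 and 417 FPKM (-1.02 ± 0.49, adjusted p = 0.209), with CKD2 close to Ctrl2, and the difference was 0.54 with the adipocyte covariate. None of the 9 tested cartilage genes was called, and Col2a1 and Col10a1 were under the filter. Cytl1, a secreted protein first described in cartilage, was at 821 and 642 FPKM against 224 and 340.4 FPKM (-1.39 ± 0.31, adjusted p = 0.0532). Comp, cartilage oligomeric matrix protein, was at 43.9 and 39.5 FPKM against 66.2 and 107 FPKM (0.998 ± 0.38, adjusted p = 0.136).

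Of 31 tested genes of bone morphogenetic protein and activin signalling, 3 were called higher and 1 lower, beside 3.10% and 4.35% of all genes. Without overlap 19.4% lay higher and 35.5% lower, against 29.0% and 36.2% of all genes, and the median was -0.09, so the list as a whole was near the background. Gdf6, a ligand of joint and skeletal patterning, was at 1.79 and 1.14 FPKM in Ctrl1 and Ctrl2 and 6.22 and 17.6 FPKM in CKD1 and CKD2 (2.25 ± 0.46, adjusted p = 0.0465). The antagonist follistatin, Fst, was at 3.45 and 3.99 FPKM against 13.3 and 11.6 FPKM (1.51 ± 0.13, adjusted p = 0.0122). Bmper, which binds BMPs outside the cell, was at 1.12 and 1.30 FPKM against 3.15 and 2.68 FPKM (0.82 ± 0.16, adjusted p = 0.0402). Fst had close levels within each group, while Gdf6 was highest in CKD2. Acvrl1, the endothelial type I receptor ALK1, was at 43.1 and 40.1 FPKM against 18.8 and 21.9 FPKM (-1.0 ± 0.14, adjusted p = 0.0238). None of 17 tested TGF-beta genes was called; Tgfbi, a matrix protein induced by that cytokine, was at 262 and 199 FPKM against 87.9 and 128 FPKM (-1.10 ± 0.33, adjusted p = 0.0892).

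Most contractile genes of smooth muscle lay lower in CKD. Of 24 tested, 4 were called lower and none higher, 21 lay under Ctrl in both CKD libraries (87.5%, against 36.2% of all genes) and the median was -0.72. The median was -0.93 in CKD1 and -0.45 in CKD2, each against the mean of Ctrl. Lmod1, leiomodin, which nucleates actin filaments, was at 247 and 219 FPKM in Ctrl1 and Ctrl2 and 78.7 and 117 FPKM in CKD1 and CKD2 (-1.26 ± 0.26, adjusted p = 0.0473). The intermediate filament gene Des was at 25.2 and 22.6 FPKM against 11.2 and 8.80 FPKM (-1.19 ± 0.17, adjusted p = 0.0249, 5.9% exon overlap). Des was the lower in CKD2 and Lmod1 in CKD1. Tropomyosin 1, Tpm1, was at 299 and 276 FPKM against 129 and 170.0 FPKM (-0.95 ± 0.19, adjusted p = 0.0442). Synpo2, an actin-bundling protein of the Z-disc and dense bodies, was at 65.1 and 59.3 FPKM against 32.7 and 38.9 FPKM (-0.78 ± 0.16, adjusted p = 0.043). Among uncalled members Cnn1, calponin, was at 585 and 500.4 FPKM against 201 and 315 FPKM (-1.10 ± 0.26, adjusted p = 0.056). Myh11, the smooth muscle myosin heavy chain, was at 1123 and 1039 FPKM against 554 and 755 FPKM (-0.74 ± 0.22, adjusted p = 0.0856). For Acta2, given above, the difference was -0.79 ± 0.34, adjusted p = 0.169. With the adipocyte level as a covariate it was 0.18, and the list's median was -0.18.

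Receptors of vascular tone went both ways. Avpr1a, the vasopressin receptor of smooth muscle, was at 4.77 and 5.37 FPKM in Ctrl1 and Ctrl2 and 1.17 and 1.50 FPKM in CKD1 and CKD2 (-1.38 ± 0.22, adjusted p = 0.0301). Npr1, the guanylate cyclase receptor for atrial natriuretic peptide, was at 76.2 and 69.3 FPKM against 43.8 and 45.1 FPKM (-0.70 ± 0.13, adjusted p = 0.0392, 11.7% exon overlap). Npr3, the receptor that clears the same peptides, was at 5.03 and 6.14 FPKM against 11.3 and 11.7 FPKM (0.93 ± 0.15, adjusted p = 0.0301). Npr1 thus fell and Npr3 rose, with both CKD libraries alike in each. Of the list's 19 tested genes 2 were called in each direction, beside 3.10% higher and 4.35% lower of all genes. Among the 19, 5 lay higher (26.3%) and 11 lower (57.9%) without overlap, against 29.0% and 36.2% of all genes. The median was -0.42. Among 18 tested ion channel and calcium genes only Casq1 was called.

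Chains of fibrillar and type VI collagen were among the falls. Of 23 tested collagen chains 5 were called lower and none higher, beside 4.35% and 3.10% of all genes. Among the 23, 18 lay lower without overlap (78.3%, against 36.2% of all genes), and the median was -0.50. Col1a1 was at 441 and 391 FPKM in Ctrl1 and Ctrl2 and 81.0 and 149 FPKM in CKD1 and CKD2 (-1.91 ± 0.31, adjusted p = 0.0314). Col3a1 was at 322 and 345 FPKM against 58.9 and 131 FPKM (-1.91 ± 0.40, adjusted p = 0.0473). Both are main chains of fibrillar collagen in the vessel wall. Among type VI chains Col6a1 was at 196 and 182 FPKM against 76.1 and 99.5 FPKM (-1.11 ± 0.20, adjusted p = 0.0372). Col6a2 was at 104 and 97.7 FPKM against 39.2 and 53.4 FPKM (-1.12 ± 0.19, adjusted p = 0.0347). Col6a6 was at 3.25 and 3.23 FPKM against 0.856 and 1.20 FPKM (-1.07 ± 0.15, adjusted p = 0.0238). In each of the 5, CKD1 was lower than CKD2. Col5a3 went the other way, at 1.31 and 1.47 FPKM against 4.59 and 2.55 FPKM (0.90 ± 0.23, adjusted p = 0.069), without passing the test.

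Genes whose products fold and modify collagen fell in part. Of 25 tested, 3 were called lower and none higher, beside 4.35% and 3.10% of all genes. Among the 25, 17 lay lower without overlap (68.0%, against 36.2% of all genes), and the median was -0.44. Sparc, osteonectin, a collagen- and calcium-binding protein, was at 1617 and 1746 FPKM in Ctrl1 and Ctrl2 and 335 and 594 FPKM in CKD1 and CKD2 (-1.91 ± 0.30, adjusted p = 0.0301). Serpinh1, the collagen chaperone HSP47, was at 520.5 and 429 FPKM against 132 and 209 FPKM (-1.50 ± 0.30, adjusted p = 0.0445). P4ha1, a catalytic subunit of prolyl 4-hydroxylase, was at 51.5 and 39.95 FPKM against 12.6 and 18.6 FPKM (-1.51 ± 0.24, adjusted p = 0.0301). For this list the median with the adipocyte covariate was 0.11, and for collagen chains -0.15. No elastic fibre gene of 16 tested was called.

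Among matrix proteases 4 changed. Mmp12, macrophage elastase, which cleaves elastin, was at 0.822 and 0.438 FPKM in Ctrl1 and Ctrl2 and 8.47 and 14.7 FPKM in CKD1 and CKD2 (2.91 ± 0.26, adjusted p = 0.0122). Adamts15 was at 4.47 and 6.36 FPKM against 26.8 and 27.2 FPKM (2.14 ± 0.28, adjusted p = 0.0235). Mmp19 was at 3.66 and 3.74 FPKM against 8.38 and 11.3 FPKM (1.19 ± 0.21, adjusted p = 0.035, 22.3% exon overlap). Adamts8 was at 7.71 and 7.65 FPKM against 1.60 and 2.45 FPKM (-1.54 ± 0.18, adjusted p = 0.0195, 10.6% exon overlap). The first 3 were higher and Adamts8 lower, out of 24 tested proteases and inhibitors with a median of 0.03. Mmp12 passed the filter only through CKD. Without members that passed through 1 group alone, 2 of 21 were called higher and 1 lower. Has1, a hyaluronan synthase, was at 1.04 and 0.601 FPKM against 2.88 and 2.39 FPKM (1.01 ± 0.17, adjusted p = 0.0342). Thbs4, thrombospondin 4, was at 0.256 and 0.301 FPKM against 1.11 and 1.35 FPKM (0.80 ± 0.15, adjusted p = 0.0401).

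HOX genes, homeobox factors whose expression keeps a record of a cell's position along the body axis, mostly lay lower in CKD. Of 15 tested members of the list 7 were called lower and none higher, beside 4.35% and 3.10% of all genes. Among the 15, 13 lay lower without overlap (86.7%, against 36.2% of all genes). The median was -0.83, with -0.81 in CKD1, -0.82 in CKD2 and -0.66 with the adipocyte covariate. Of the 15, 4 passed the filter only through Ctrl, and among the remaining 11 genes 5 were called lower and the median was -0.72. Hoxb6 (chr11:96292476-96301569) was at 21.3 and 12.8 FPKM in Ctrl1 and Ctrl2 and 3.44 and 3.88 FPKM in CKD1 and CKD2 (-1.92 ± 0.23, adjusted p = 0.0215). Hoxb7 was at 10.2 and 6.29 FPKM against 2.54 and 1.97 FPKM (-1.48 ± 0.22, adjusted p = 0.0293). Hoxa6 was at 7.43 and 4.84 FPKM against 1.86 and 1.66 FPKM (-1.35 ± 0.21, adjusted p = 0.0301). Hoxb5 was at 5.26 and 3.58 FPKM against 1.50 and 1.39 FPKM (-1.13 ± 0.18, adjusted p = 0.0314). In these 4 genes both CKD libraries lay close to each other, and Ctrl1 was above Ctrl2. Hoxb4 was at 11.8 and 8.26 FPKM against 6.27 and 5.18 FPKM (-0.70 ± 0.21, adjusted p = 0.0912). Hoxa5 was at 17.4 and 9.89 FPKM against 14.9 and 11.0 FPKM (-0.03 ± 0.28, adjusted p = 0.943), with overlapping libraries. Over all 35 Hox genes in the files, which include genes chosen after their values were seen, 18 were tested, 9 were called lower and none higher. Outside the list, Hoxb9 was at 3.27 and 2.28 FPKM against 0.552 and 0.269 FPKM (-1.42 ± 0.19, adjusted p = 0.0235). Hoxb8 was at 4.68 and 2.91 FPKM against 0.821 and 0.736 FPKM (-1.41 ± 0.21, adjusted p = 0.0268). Both passed the filter only through Ctrl, as did Hoxc6 and Hoxc8 among the called list members. The count of 9 thus leans in part on genes that had to differ.

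The microRNA gene Mir196a-1 lies in the same chromosome 11 cluster and was among the largest falls, at 13.6 and 10.4 FPKM in Ctrl1 and Ctrl2 and 2.65 and 1.36 FPKM in CKD1 and CKD2 (-2.13 ± 0.29, adjusted p = 0.0235). Its annotated length is 102 bases, so these values rest on 23 and 16 reads in Ctrl1 and Ctrl2 and on 4 and 2 in CKD1 and CKD2, from polyadenylated RNA and not from the mature microRNA. The mature sequence is shown because it names the product: RefSeq (GRCm38.p6) places it at chr11:96265187-96265208 on the plus strand, and capitals mark its seed, bases 2 to 8.
miR-196a-5p: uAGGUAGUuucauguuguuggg
Of 116 microRNA genes tested, 5 were called higher and 9 lower, beside 3.10% and 4.35% of all genes.

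**Figure D3:**
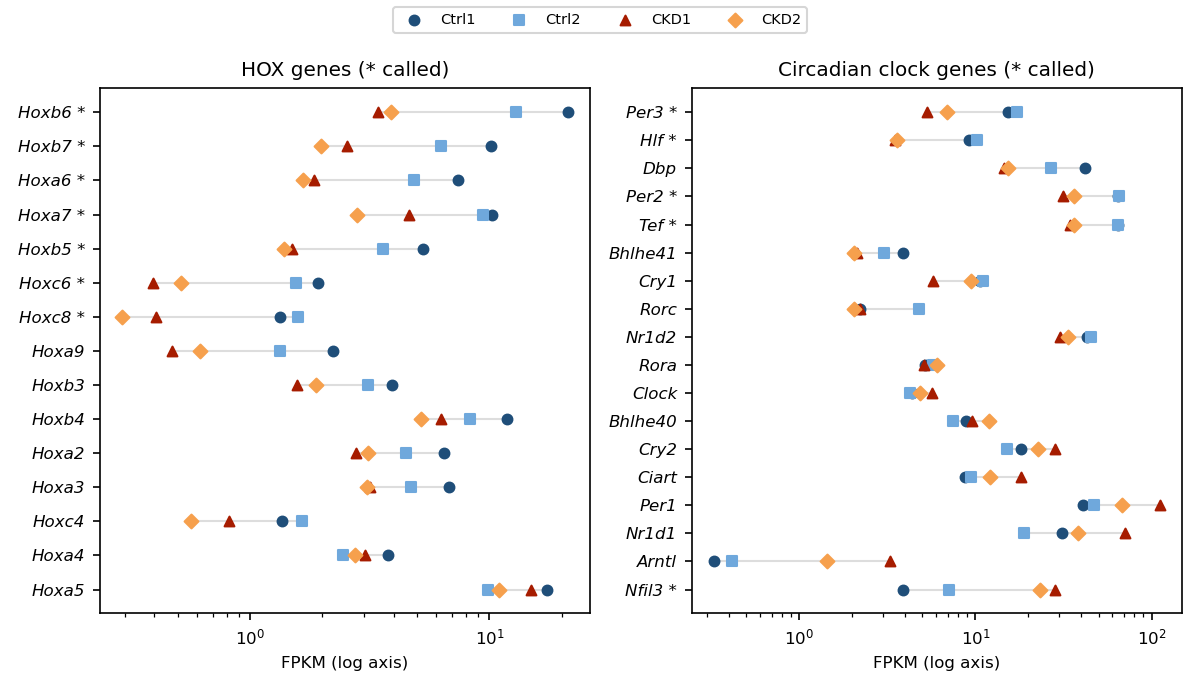
Values in FPKM (log axis) in the 4 libraries for the tested HOX genes and circadian clock genes, ordered by log2 difference, with called genes starred. The 7 starred HOX genes have both CKD points to the left of both Ctrl points, and the clock genes fall into lower (Per3, Hlf, Per2, Tef) and higher (Nfil3) members.

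Genes of the circadian clock, a feedback loop in which CLOCK and ARNTL drive the period and cryptochrome genes through E-box motifs, split by direction. Of 18 tested, 4 were called lower and 1 higher, beside 4.35% and 3.10% of all genes. Among the 18, 8 lay lower and 8 higher without overlap (44.4% each, against 36.2% and 29.0% of all genes). The median was -0.21. Per3 was at 15.3 and 17.1 FPKM in Ctrl1 and Ctrl2 and 5.29 and 6.94 FPKM in CKD1 and CKD2 (-1.28 ± 0.17, adjusted p = 0.0232). Per2 was at 64.9 and 65.6 FPKM against 31.3 and 36.4 FPKM (-0.93 ± 0.14, adjusted p = 0.0277). The D-box activator Hlf was at 9.25 and 10.1 FPKM against 3.48 and 3.59 FPKM (-1.24 ± 0.13, adjusted p = 0.017). Tef, a relative of Hlf, was at 64.7 and 64.7 FPKM against 34.3 and 36.3 FPKM (-0.86 ± 0.15, adjusted p = 0.035). The groups were tight in all 4 genes. Nfil3, the repressor that competes with Hlf and Tef at the D-box, was at 3.86 and 7.08 FPKM against 28.4 and 23.2 FPKM (2.09 ± 0.26, adjusted p = 0.0221). Dbp, another D-box activator, was at 42.0 and 26.8 FPKM against 14.6 and 15.3 FPKM (-1.11 ± 0.29, adjusted p = 0.0691, 18% exon overlap). Arntl was at 0.328 and 0.413 FPKM against 3.25 and 1.44 FPKM (1.23 ± 0.27, adjusted p = 0.0512). Per1 was at 41.0 and 47.4 FPKM against 111 and 68.0 FPKM (0.97 ± 0.27, adjusted p = 0.0779). The hour at which tissue was taken is not given in the sources used here, and its part was not tested. With the adipocyte covariate the sign of all 18 genes was kept, and the median was 0.02.

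Stretches of 2 promoters are shown as examples that hold the letters of the D-box or the E-box. Of 9 clock genes searched, Per3 held the D-box letters, Tef and 1 of 2 Per1 windows the E-box letters, and Hlf, Dbp, Nfil3, Arntl and Nr1d1 neither, while Per2 had no window. Per3 held no E-box letters in its window. The windows are RefSeq's (GRCm38.p6), which run from 250 bases before a gene's start to 50 after it, and only bases before the start are printed, 5′ to 3′ on the gene's strand with motif matches in capitals. The Per3 stretch, chr4:151044776-151044910 on the minus strand, holds 2 matches to the D-box letters TTATGTAA. The Tef stretch, chr15:81802506-81802591 on the plus strand, holds 1 match to the E-box letters CACGTG.
Per3: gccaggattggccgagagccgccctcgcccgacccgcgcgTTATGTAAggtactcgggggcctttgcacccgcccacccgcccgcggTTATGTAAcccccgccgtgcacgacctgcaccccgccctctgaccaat
Tef: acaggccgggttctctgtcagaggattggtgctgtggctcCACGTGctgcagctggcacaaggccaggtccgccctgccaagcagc
Searched on both strands, TTATGTAA was found in 0.938% of the 32851 windows of the same length and CACGTG in 7.15%. A match is a description of the letters and not a shown binding site.

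Genes known to respond to glucocorticoids were mostly higher. Of 21 tested, 4 were called higher and none lower, 16 lay higher without overlap (76.2%, against 29.0% of all genes), and the median was 0.97, or 0.35 with the adipocyte covariate. Sgk1, a kinase induced by glucocorticoids and by aldosterone, was at 26.7 and 33.3 FPKM in Ctrl1 and Ctrl2 and 91.5 and 84.7 FPKM in CKD1 and CKD2 (1.53 ± 0.26, adjusted p = 0.0349). Mt1, a metallothionein, was at 246 and 376 FPKM against 1062 and 817 FPKM (1.61 ± 0.28, adjusted p = 0.0347). Cdkn1a, the cell cycle inhibitor p21, was at 26.4 and 25.6 FPKM against 159.6 and 80.6 FPKM (2.09 ± 0.31, adjusted p = 0.029, 7.7% exon overlap). Pdk4, which switches off pyruvate oxidation, was at 26.1 and 54.9 FPKM against 231 and 129.9 FPKM (2.16 ± 0.42, adjusted p = 0.0406). CKD1 was the highest library in all 4. Some uncalled members moved less, while others, such as Ddit4 (1.49), lay well above Ctrl. Tsc22d3 (0.10 ± 0.16, adjusted p = 0.679) and Klf9 (0.22 ± 0.21, adjusted p = 0.497) overlapped. Fkbp5 (0.63 ± 0.26, adjusted p = 0.157) and Zbtb16 (0.22 ± 0.22, adjusted p = 0.537) lay higher without passing. The receptor gene Nr3c1 lay lower in both CKD libraries (-0.53 ± 0.14, adjusted p = 0.07). Whether glucocorticoids had a part was not tested. An Sgk1 promoter window is shown since it holds a full palindromic element for steroid receptors, found on either strand, as AGAACA and TGTTCT with 3 bases of any kind between them, in 3 of the 32851 windows (0.00913%). Of the glucocorticoid-responsive genes only Sgk1 and Per1 were looked up by name, and none of 2 Per1 windows held the element. Of 6 Sgk1 windows 1 holds it, in the stretch at chr10:21993661-21993755 on the plus strand.
Sgk1: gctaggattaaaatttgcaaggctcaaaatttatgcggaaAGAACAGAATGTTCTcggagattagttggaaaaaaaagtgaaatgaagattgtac

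In the renin-angiotensin system the substrate and the enzyme that starts its cleavage rose. Agt, angiotensinogen, was at 0.159 and 0.349 FPKM in Ctrl1 and Ctrl2 and 14.5 and 4.69 FPKM in CKD1 and CKD2 (2.91 ± 0.46, adjusted p = 0.0305). Ren1, renin, was at 0.399 and 0.757 FPKM against 5.39 and 4.64 FPKM (1.94 ± 0.17, adjusted p = 0.0122). Both were under 1 FPKM in both Ctrl libraries and passed the filter only through CKD, and Agt was higher in CKD1 than in CKD2. None of the other 8 tested members was called. The angiotensin receptors Agtr1a, Agtr1b and Agtr2 were under the filter. Hsd11b1, which reactivates glucocorticoids, was at 10.4 and 9.22 FPKM against 24.1 and 23.3 FPKM (1.20 ± 0.41, adjusted p = 0.115). The vitamin D receptor gene Vdr was at 0.191 and 0.117 FPKM against 1.19 and 1.47 FPKM (1.01 ± 0.18, adjusted p = 0.035), and it too passed the filter only through CKD. Pde4d, a cAMP phosphodiesterase listed with parathyroid hormone signalling, was at 1.11 and 1.71 FPKM against 12.1 and 4.97 FPKM (1.89 ± 0.40, adjusted p = 0.0485). Pthlh, parathyroid hormone-related protein, was at 6.05 and 5.55 FPKM against 2.26 and 5.35 FPKM (-0.58 ± 0.33, adjusted p = 0.282).

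Single genes of growth and stress lists were called. Besides Cdkn1a, the inhibitor Cdkn2b was at 0.690 and 0.237 FPKM in Ctrl1 and Ctrl2 and 2.86 and 1.94 FPKM in CKD1 and CKD2 (1.22 ± 0.24, adjusted p = 0.0423), and these with Igfbp3 were the 3 called of 14 tested cell cycle inhibitors and senescence factors. Cdkn2b passed the filter only through CKD, and without members of that kind 2 of 12 were called. None of 13 tested proliferation genes was called. The oncogene Myc was at 1.84 and 2.46 FPKM against 12.9 and 8.72 FPKM (1.89 ± 0.21, adjusted p = 0.0195). The immediate early gene Egr2 was at 0.654 and 0.933 FPKM against 2.09 and 3.02 FPKM (0.98 ± 0.19, adjusted p = 0.0401), 2 of 22 tested. Egr2 passed the filter only through CKD, and without it 1 of 21 was called. Asns, asparagine synthetase, a target of the amino acid response, was at 1.71 and 2.97 FPKM against 14.7 and 7.34 FPKM (1.80 ± 0.33, adjusted p = 0.038), the only one called of 22 tested unfolded protein and stress response genes (3.10% of all genes were called higher). Of those 22 genes, 4 lay higher and 10 lower without overlap, shares of 18.2% and 45.5%, and the median was -0.15. Ddit3, which encodes the stress factor CHOP, was at 23.1 and 18.8 FPKM against 8.73 and 11.8 FPKM (-0.97 ± 0.25, adjusted p = 0.0706, 6.1% exon overlap), lower in both CKD libraries.

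Of 20 tested antioxidant genes under NRF2, 4 were called higher and none lower, beside 3.10% and 4.35% of all genes. Among the 20, 13 lay higher (65.0%) and 1 lower (5.0%) without overlap, against 29.0% and 36.2% of all genes. The median was 0.56, or 0.23 with the adipocyte covariate, under which 11 of the 20 kept their sign. Hmox1, haem oxygenase 1, was at 11.9 and 10.0 FPKM in Ctrl1 and Ctrl2 and 28.8 and 36.6 FPKM in CKD1 and CKD2 (1.49 ± 0.18, adjusted p = 0.0221). Gclc, which limits glutathione synthesis, was at 12.9 and 15.3 FPKM against 23.9 and 25.3 FPKM (0.77 ± 0.14, adjusted p = 0.035). Txnrd1, thioredoxin reductase, was at 9.31 and 10.6 FPKM against 18.2 and 18.4 FPKM (0.82 ± 0.15, adjusted p = 0.0366). Both CKD libraries were alike for the last pair. Gpx3, the secreted glutathione peroxidase, was at 99.0 and 117 FPKM against 1066 and 576 FPKM (2.85 ± 0.32, adjusted p = 0.0195), with CKD1 well above CKD2. The zinc importer Slc39a8 was at 0.376 and 0.233 FPKM against 2.19 and 1.71 FPKM (1.17 ± 0.18, adjusted p = 0.0301), and passed the filter only through CKD. Of 17 tested acute phase and iron genes, 3 were called higher (Hp, Hmox1 and Serpina3m) and 1 lower, beside 3.10% and 4.35% of all genes. Among the 17, 14 lay higher without overlap (82.4%, against 29.0% of all genes). The gene called lower was Steap3, a ferrireductase, at 8.12 and 8.14 FPKM against 3.86 and 5.15 FPKM (-0.74 ± 0.15, adjusted p = 0.0458). Of the 3 higher genes 1 passed the filter only through CKD, and without it 2 of 16 were called higher.

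Of 15 tested genes of the insulin-like growth factor system 2 were called, both higher, beside 3.10% of all genes. Among the 15, 10 lay higher without overlap (66.7%, against 29.0% of all genes). The list's median was 0.58, or 0.71 with the adipocyte covariate. Besides Igfbp3, Igf1 itself was at 4.06 and 4.09 FPKM in Ctrl1 and Ctrl2 and 6.91 and 6.30 FPKM in CKD1 and CKD2 (0.58 ± 0.11, adjusted p = 0.0409). Igfbp2 was at 5.01 and 7.48 FPKM against 18.5 and 62.3 FPKM (2.30 ± 0.59, adjusted p = 0.067). Igfbp4 was at 179 and 150.4 FPKM against 399 and 412 FPKM (1.30 ± 0.36, adjusted p = 0.0757). The growth hormone receptor gene Ghr was at 9.06 and 10.5 FPKM against 47.3 and 18.5 FPKM (1.51 ± 0.41, adjusted p = 0.0756). All 3 were higher in both CKD libraries without passing the test.

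Most macrophage markers lay higher in CKD. Of 23 tested, 9 were called higher and none lower, beside 3.10% and 4.35% of all genes. Among the 23, 20 lay higher without overlap (87.0%, against 29.0% of all genes), and the median was 1.36. Against the mean of Ctrl the median was 1.02 in CKD1 and 1.61 in CKD2, the reverse of the order of the adipocyte markers, and with the adipocyte covariate it was 1.90. Without the 2 called markers that passed the filter only through CKD, 7 of 21 were called higher and the median was 1.33. Cd14, a co-receptor for lipopolysaccharide, was at 12.4 and 11.9 FPKM in Ctrl1 and Ctrl2 and 41.6 and 75.4 FPKM in CKD1 and CKD2 (2.12 ± 0.31, adjusted p = 0.0278). Lgals3, galectin 3, was at 14.6 and 14.2 FPKM against 41.4 and 74.1 FPKM (1.88 ± 0.30, adjusted p = 0.0314). Trem2, a lipid receptor of tissue macrophages, was at 0.778 and 0.334 FPKM against 2.87 and 3.99 FPKM (1.51 ± 0.26, adjusted p = 0.035). Each was highest in CKD2. The resident macrophage marker Lyve1, shared with lymphatic endothelium, was at 40.4 and 44.1 FPKM against 89.7 and 141 FPKM (1.39 ± 0.53, adjusted p = 0.138). Among 7 tested NADPH oxidase genes none was called; Ncf1 was at 4.25 and 5.36 FPKM against 8.88 and 15.9 FPKM (1.16 ± 0.33, adjusted p = 0.0791, 11.1% exon overlap).

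Of 18 tested complement genes 12 lay higher without overlap (66.7%, against 29.0% of all genes). Among the 18, 5 were called higher and none lower, beside 3.10% and 4.35% of all genes. The 5 were C1qa, C1qb and C1qc, which are also counted among the macrophage markers, Cfd, also a white adipocyte marker, and C4b. C1qb, 1 of the 3 chains of C1q, the sensor of the classical pathway, was at 103 and 92.9 FPKM in Ctrl1 and Ctrl2 and 218 and 300.4 FPKM in CKD1 and CKD2 (1.38 ± 0.23, adjusted p = 0.033). C1qa was at 136 and 119 FPKM against 259 and 372 FPKM (1.28 ± 0.23, adjusted p = 0.0366). C1qc was at 58.3 and 49.5 FPKM against 115 and 161 FPKM (1.33 ± 0.22, adjusted p = 0.0323). C4b, the next protein in that pathway, was at 25.7 and 22.1 FPKM against 90.7 and 109.7 FPKM (2.02 ± 0.32, adjusted p = 0.0301). C3 was at 102 and 107 FPKM against 298 and 321 FPKM (1.55 ± 0.45, adjusted p = 0.0853), with both CKD libraries near each other but no call. Of 16 tested chemokines 3 were called higher, Cxcl13, given above, Ccl6 and Cxcl14. Ccl6 was at 56.4 and 53.7 FPKM against 157 and 283 FPKM (1.92 ± 0.34, adjusted p = 0.0372). Cxcl14 was at 0.0659 and 0.326 FPKM against 2.63 and 2.81 FPKM (1.65 ± 0.17, adjusted p = 0.017). Ccl5, a T cell chemoattractant, was at 5.82 and 4.198 FPKM against 0.564 and 0.938 FPKM (-1.77 ± 0.41, adjusted p = 0.0554), lower in both CKD libraries. Cxcl14 passed the filter only through CKD and Ccl5 only through Ctrl, and without them 2 of 14 chemokines were called.

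Of 8 tested mast cell markers 5 were called higher and none lower, beside 3.10% and 4.35% of all genes. Among the 8, 7 lay higher without overlap (87.5%, against 29.0% of all genes), while Gata2 overlapped (-0.36 ± 0.22, adjusted p = 0.299). Hdc, which makes histamine, was at 0.282 and 0.486 FPKM in Ctrl1 and Ctrl2 and 5.30 and 3.11 FPKM in CKD1 and CKD2 (1.88 ± 0.24, adjusted p = 0.0232). The chymase Cma1 was at 5.26 and 7.14 FPKM against 14.1 and 15.6 FPKM (1.15 ± 0.19, adjusted p = 0.0325). The tryptase Tpsb2 was at 7.67 and 11.8 FPKM against 23.7 and 25.5 FPKM (1.28 ± 0.21, adjusted p = 0.0337). The IgE receptor chain Fcer1a was at 0.542 and 0.397 FPKM against 1.90 and 3.61 FPKM (1.32 ± 0.24, adjusted p = 0.0372). Kit, the receptor mast cells share with other cells, was at 1.11 and 0.793 FPKM against 1.24 and 1.32 FPKM (0.23 ± 0.15, adjusted p = 0.319). The list's median was 1.04, and 0.99 with the adipocyte covariate. Hdc and Fcer1a passed the filter only through CKD, and without them 3 of 6 were called and the median was 0.87.

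Genes of interferon-inducible GTPases were among the falls. Of 23 tested interferon-inducible genes 5 were called lower and none higher, beside 4.35% and 3.10% of all genes. In the list 10 lay lower (43.5%) and 2 higher (8.7%) without overlap, against 36.2% and 29.0% of all genes. The list's median was -0.20, or 0.31 with the adipocyte covariate. The GTPase gene Irgm1 overlapped (-0.20 ± 0.19, adjusted p = 0.508). Igtp, an immunity-related GTPase, was at 15.8 and 14.0 FPKM in Ctrl1 and Ctrl2 and 3.34 and 4.18 FPKM in CKD1 and CKD2 (-1.74 ± 0.19, adjusted p = 0.0195, 8.0% exon overlap). Irgm2 was at 13.8 and 10.1 FPKM against 2.42 and 4.47 FPKM (-1.57 ± 0.26, adjusted p = 0.0323). Iigp1 was at 17.1 and 14.8 FPKM against 3.77 and 7.08 FPKM (-1.45 ± 0.28, adjusted p = 0.0406). Gbp2 was at 22.2 and 18.3 FPKM against 7.85 and 11.5 FPKM (-1.01 ± 0.20, adjusted p = 0.0416). Irf7, a regulator of the type I response, was at 2.80 and 3.76 FPKM against 5.57 and 8.34 FPKM (0.88 ± 0.55, adjusted p = 0.318), higher in both CKD libraries. None of 7 tested genes of MHC class II presentation was called, and 6 lay lower without overlap (85.7%, against 36.2% of all genes). H2-Ab1 was at 114 and 105 FPKM against 32.5 and 81.5 FPKM (-1.07 ± 0.51, adjusted p = 0.208), with CKD2 nearer to Ctrl than CKD1. With the adipocyte covariate its difference was 0.10.

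A list of secreted angiopoietin-like proteins, C1q/TNF-related proteins and adipokines gave 5 called falls among 16 tested genes, beside 4.35% of all genes. Besides Angptl7 and C1qtnf3 these were C1qtnf6, Angptl2 and Angptl1. C1qtnf6 was at 23.1 and 28.2 FPKM in Ctrl1 and Ctrl2 and 8.25 and 9.05 FPKM in CKD1 and CKD2 (-1.46 ± 0.16, adjusted p = 0.0195). Angptl2 was at 25.5 and 30.7 FPKM against 16.6 and 12.1 FPKM (-0.93 ± 0.18, adjusted p = 0.0421). Angptl1 was at 3.38 and 2.81 FPKM against 1.02 and 1.44 FPKM (-0.88 ± 0.16, adjusted p = 0.0378, 16.4% exon overlap). Angptl4, which inhibits lipoprotein lipase and is known from fat, was at 9.53 and 13.3 FPKM against 85.4 and 30.8 FPKM (2.096 ± 0.48, adjusted p = 0.0548). Adipoq, adiponectin, the defining hormone of fat cells, was at 25.3 and 70.1 FPKM against 681 and 199.8 FPKM (3.10 ± 0.68, adjusted p = 0.051).

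Most white adipocyte markers were lowest in Ctrl1 and highest in CKD1. Of 20 tested white adipocyte markers, 3 were called higher (Cebpa, Plin1 and Cfd), 17 lay higher without overlap, and the median was 2.34, with 3.11 in CKD1 and 1.55 in CKD2. Their summed level was 741 and 1629 FPKM for Ctrl, against 11020 and 3680 FPKM for CKD, and no marker was at 0. Plin1, the lipid droplet coat, was at 8.23 and 17.4 FPKM in Ctrl1 and Ctrl2 and 135 and 53.0 FPKM in CKD1 and CKD2 (2.72 ± 0.50, adjusted p = 0.0385). Cfd, the complement protease adipsin, was at 247 and 589 FPKM against 4660.1 and 1606 FPKM (2.84 ± 0.60, adjusted p = 0.0486). Ucp1, the uncoupler of brown fat, was at 26.3 and 77.4 FPKM against 539 and 178 FPKM (2.75 ± 0.69, adjusted p = 0.0648). Ppargc1a, a coactivator of mitochondrial genes, was at 0.419 and 0.832 FPKM against 13.2 and 8.23 FPKM (2.83 ± 0.25, adjusted p = 0.0122). It passed the filter only through CKD. Fatty acid oxidation genes had a median of 1.17, with 3 of 22 called higher, among them Acot2 at 3.31 and 4.06 FPKM against 20.9 and 12.1 FPKM (1.86 ± 0.26, adjusted p = 0.0243). None of 29 tested nuclear genes of oxidative phosphorylation was called, though 27 lay higher without overlap (93.1%, against 29.0% of all genes). Their median was 0.85.

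**Figure D4:**
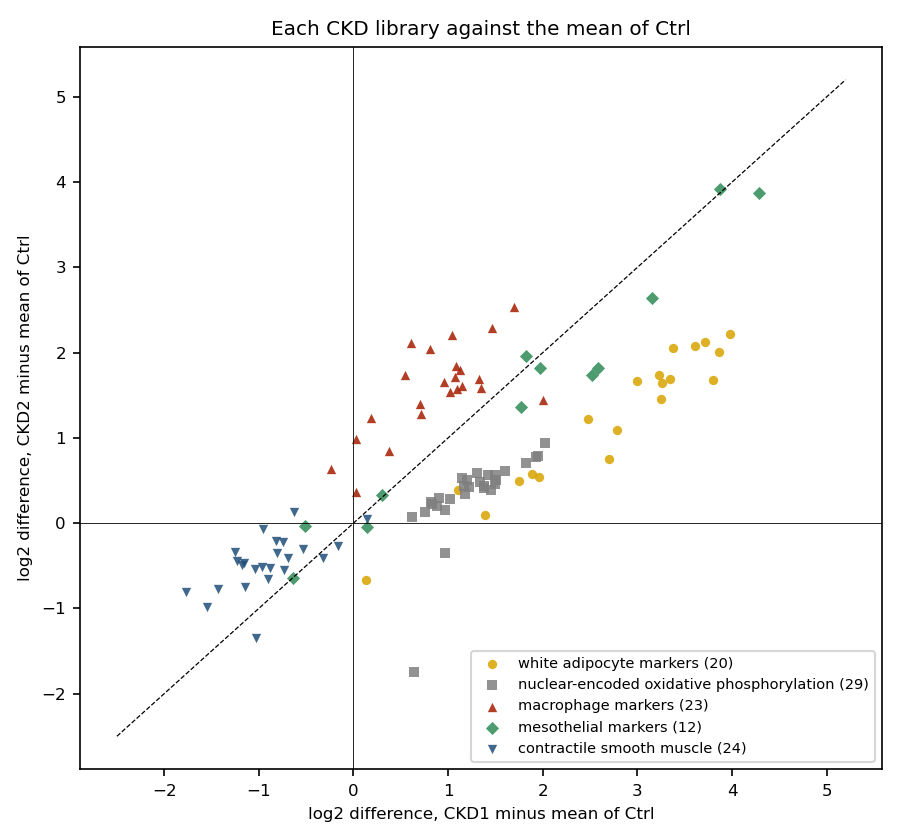
Each point is a gene of the list named in the legend: the x axis is its log2 difference in CKD1 and the y axis that in CKD2, each against the mean of both Ctrl libraries, with the dashed line where both are equal. White adipocyte and oxidative phosphorylation genes lie to the right of the line, most macrophage markers above it, and mesothelial markers near it (medians 1.90 in CKD1 and 1.77 in CKD2).

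Under the adipocyte covariate, list medians came to 0.17 for white adipocyte markers, whose levels define it, -0.11 for fatty acid oxidation and -0.13 for oxidative phosphorylation. For macrophage markers the median was 1.36 without and 1.90 with the covariate, and for complement 0.45 and 1.21. For chemokines it was 0.62 and 1.35, and for HOX genes -0.83 and -0.66. These kept their sign. Other medians turned, among them adventitial fibroblast markers (-0.41 and 0.43), elastic fibre genes (-0.36 and 0.20) and Wnt antagonists (-0.31 and 0.52). The adipocyte level was lower in both Ctrl than in both CKD libraries, so the covariate cannot be fully told apart from the group. The 6 genes still called included Msln, Mmp12, Myl7, Clec4d and Pla2g7, of which Clec4d and Pla2g7 are named only for this. Msln, Mmp12 and Clec4d were under 1 FPKM in both Ctrl libraries and passed the filter only through CKD, so they had to lie higher. The macrophage lectin Clec4d was at 0.714 and 0.331 FPKM in Ctrl1 and Ctrl2 and 5.92 and 11.7 FPKM in CKD1 and CKD2 (2.63 ± 0.30, adjusted p = 0.0195). Pla2g7, the phospholipase carried by lipoproteins, was at 3.95 and 2.68 FPKM against 16.0 and 22.3 FPKM (2.22 ± 0.21, adjusted p = 0.0158, 11.0% exon overlap). With the spread of the 4 libraries alone the 3 called genes were Fcna, Upk3b and Msln, of which Upk3b and Msln passed the filter only through CKD.

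**Figure D5:**
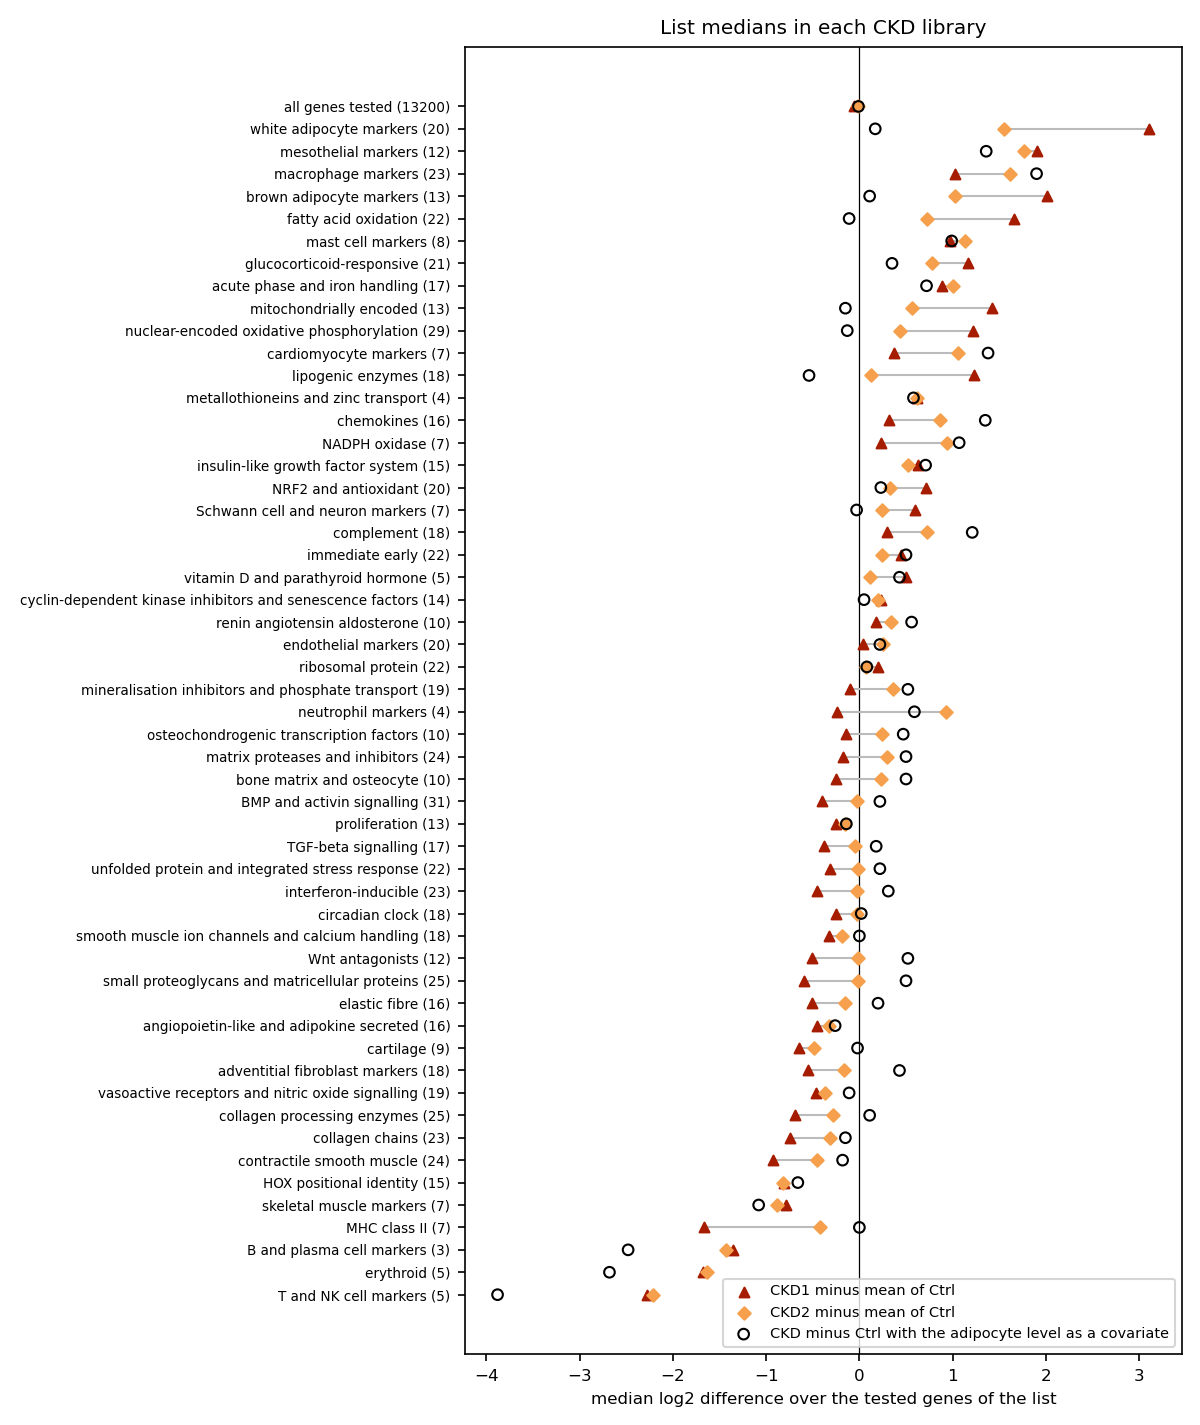
For each gene list (number of tested genes in brackets) the x axis gives the median log2 difference of CKD1 (triangles) and CKD2 (diamonds) from the mean of Ctrl, and circles give the median with the adipocyte level as a covariate. White adipocyte markers reach 3.11 in CKD1 and 1.55 in CKD2, macrophage markers 1.02 and 1.61, and HOX genes -0.81 and -0.82.

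Genes listed as markers of tissues next to the aorta also differed between groups. Of 12 tested mesothelial markers 8 were called higher and none lower, with a median of 1.89, while Wt1, Krt7, Muc16 and Bnc1 were under the filter. Of the 8, 6 (Msln, Upk3b, Upk1b, Lrrn4, Krt8 and Krt19) were under 1 FPKM in both Ctrl libraries and passed the filter only through CKD, so the count and the median lean on members that had to differ. Among the other 6 tested markers 2 were called higher, Gpm6a and Rspo1, and the median was 0.18. Besides Upk3b and Msln, Gpm6a was at 1.18 and 1.56 FPKM in Ctrl1 and Ctrl2 and 8.27 and 7.32 FPKM in CKD1 and CKD2 (1.89 ± 0.16, adjusted p = 0.0122). Krt8 was at 0.133 and 0.256 FPKM against 3.22 and 3.64 FPKM (1.89 ± 0.15, adjusted p = 0.0111, 5.2% exon overlap). The summed level of the list was 115 and 77.9 FPKM in Ctrl1 and Ctrl2, against 144 and 146 FPKM in CKD, with Gas1, which fibroblasts also express, the largest part at 83.7 and 51.0 FPKM against 45.4 and 63.6 FPKM. In Ctrl1 the markers Upk1b, Wt1 and Muc16 were listed at 0. Krt18, a keratin of simple epithelia, lay lower in CKD at 17.6 and 14.9 FPKM against 10.0 and 9.99 FPKM (-0.64 ± 0.21, adjusted p = 0.1). Of 7 tested cardiomyocyte markers 3 were called higher, Myl7, Tnnt2 and Myh6. Cardiac troponin T, Tnnt2, was at 1.71 and 2.11 FPKM against 7.80 and 8.09 FPKM (1.62 ± 0.16, adjusted p = 0.017). The alpha myosin heavy chain Myh6 was at 0.331 and 0.239 FPKM against 2.67 and 3.53 FPKM (1.67 ± 0.17, adjusted p = 0.0172). Myh6 passed the filter only through CKD, and without it 2 of 6 were called. The ventricular genes Myh7, Myl2 and Myl3 and the atrial gene Nppa were under the filter. Of 7 tested skeletal muscle genes Tcap and Casq1 were called lower. Tcap, titin-cap, was at 133 and 134 FPKM against 33.8 and 51.8 FPKM (-1.65 ± 0.22, adjusted p = 0.0237). The other tested members of that list were under 5 FPKM in every library. Acta1, the actin of skeletal muscle, was at 1.49 and 3.40 FPKM against 0.925 and 0.721 FPKM. Ckm was at 1.57 and 1.04 FPKM against 0.325 and 0.357 FPKM. Casq1 is also counted among the smooth muscle calcium genes, and which cells gave Tcap and Casq1 was not tested. Whether how much neighbouring tissue was left on each aorta has a part in these differences was not tested.

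T and NK cell genes and red cell genes were highest in Ctrl2. Of 5 tested T and NK cell markers none was called, and the 5, which passed the filter only through Ctrl, had a summed level of 7.11 and 84.2 FPKM for Ctrl, against 1.94 and 1.26 FPKM for CKD. Lck, the T cell kinase, was at 1.23 and 9.02 FPKM against 0.185 and 0.189 FPKM (-1.99 ± 0.65, adjusted p = 0.104). The 5 tested erythroid genes summed to 325 and 1248 FPKM for Ctrl, against 161 and 213 FPKM for CKD, again with no call. The 4 tested neutrophil markers overlapped between the groups, and none was called. Endothelial markers had a median of 0.15 with 1 called in each direction of 20 tested. Flt1, a receptor for vascular endothelial growth factor, was at 2.50 and 2.96 FPKM against 5.75 and 4.76 FPKM (0.74 ± 0.14, adjusted p = 0.0406). The adhesion molecule Icam2 was at 26.9 and 24.3 FPKM against 11.0 and 15.8 FPKM (-0.90 ± 0.19, adjusted p = 0.0471). None of 18 tested adventitial fibroblast markers was called.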

How the data were processed

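Polyadenylated RNA of 6 aorta libraries was sequenced with a kit that does not mark strand, per the labels' protocols. The submitters' processing notes name Bowtie2 2.2.3, HISAT2 2.1.0, TopHat2 and build GRCm38, without their roles; the counting tool is not stated. The deposited files name no unit. Their values were taken as FPKM scaled by the authors, since a value times the summed exon length of its gene (GENCODE M21) gave a whole number of reads, within 0.05, for 89.6% of the values of Ctrl1 and a like share in the other libraries. In 5 of the deposited files gene names and values stand in 1 stacked column, a layout with no other unit of its own, and its lower part was read as FPKM. Depth was worked out from the same steps.

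Differences came from limma 3.58.1 in R 4.3.3 on log2(FPKM + 1), with 3 group means over 6 libraries, a variance trend, robust spread, and Benjamini-Hochberg adjustment over the 13200 genes that reached 1 FPKM in 2 or more of 4 libraries. Genes with an adjusted p below 0.05 were called. limma was tested on simulated data with noise drawn independently for each gene and library. Differences shared by many genes of a library, such as the adipocyte level, were not simulated, so the calls were not tested against them. Coordinates are those of GRCm38. The members and gene lists were chosen with earlier results of these data known. Named genes were drawn from the 12 largest rises and falls with a mean of at least 5 FPKM, the 10 most separated called genes in each direction, up to 4 called and 4 uncalled non-overlapping members of each list described (or its most abundant members), and checks such as Spp1 and Runx2. Acta2, Myh11, Col3a1, Gas1, Hoxa5, Hoxb8, Hoxb9, Tef, Trem2, Angptl2, Clec4d and Pla2g7 fall outside that rule and were chosen after their values were seen, as were Trbc2 and Hbb-bs where they describe libraries. Hoxc6, Hoxc8, Tsc22d3, Klf9, Fkbp5, Zbtb16, Nr3c1, Irgm1 and Gata2 fall outside it too and were likewise chosen after their values were seen. Alternatives changed the pseudocount, the filter, the scaling, the variance model, the covariates and the libraries. Some genes that the rule names are not reported here.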

Additional observations from a re-analysis of the deposited data

How the results depend on the processing

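The counts of called genes, 409 higher and 574 lower, kept within 1.5 times under pseudocounts of 0.1 and 0.5, a filter at 5 FPKM, the 3 other scalings and limma without trend and robust spread. They moved to 11 and 4 without a filter, to 3 and 0 with only the 4 CKD and Ctrl libraries, and to 6 and 0 with the adipocyte level as a covariate, where 0 falls stood beside 1421 genes at an unadjusted p below 0.05. Leaving out 1 library at a time gave 0 to 1298 called higher and 0 to 1414 called lower, with a lone library of a group assumed to vary like the other groups. The cause was not tested. Genes that did not overlap and differed by at least 1 numbered 971, and 1604 with a pseudocount of 0.1, 623 with the filter at 5 FPKM and, leaving out 1 library at a time, 793 to 1533.

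The replicate numbers did not pair the libraries: the differences between library 2 and library 1 correlated at -0.26 between Ctrl and CKD across genes, which are not independent. With the replicate block 35 genes were called higher and 33 lower. With the crossed pairing as the block, chosen after seeing the data, 689 were called higher and 786 lower.

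No called gene turned direction in any alternative. Uncalled genes did. With the adipocyte covariate the difference was 0.18 for Acta2, 0.66 for Mgp, 0.59 for Sox9, 0.54 for Sost, 0.065 for Hoxa5, 0.43 for Pthlh and 0.10 for H2-Ab1. Mgp was at 0.0079 with median-ratio and 0.011 with upper-quartile scaling. Leaving out 1 library at a time gave -0.44 to 0.40 for Mgp, -0.229 to 0.19 for Sox9 and -0.41 to 0.34 for Hoxa5. With 2 libraries a group, single genes rest on few values, and at this depth genes under 1 FPKM rest on few reads.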
